A study of Mus musculus with 5 samples.

Results

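The histones that package newly made DNA are coded by small genes crowded into the Hist clusters of the mouse genome. Of the 31053 features measured in these libraries, 67 carry a symbol that starts with Hist1, Hist2, Hist3 or Hist4, and all 67 were taken by symbol alone. The Hist1 cluster holds 54 of them (chr13:21715763-23934851, build mm10, GENCODE M21), Hist2 holds 10 (chr3:96219865-96270132), Hist3 holds 2 (chr11:58948920-58956830) and Hist4 holds 1 (chr6:136801553-136804415). By product, 6 code for the linker histone H1, 18 for H2A, 18 for H2B, 12 for H3 and 13 for H4. Levels are CPM, the UMIs (distinct captured transcript copies) of a gene per 1000000 UMIs of all genes other than the 13 mitochondrial ones, summed over the hepatocytes of a library.

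Liver cells of C57BL/6J mice had been released by perfusion, freed of dead cells and sequenced as 10x v3 single-cell libraries, 1 library per group. The groups were normal pups at postnatal day 14 (P14), an adult control, and adults at 24, 48 and 96 h after partial hepatectomy (PHx), an operation done at 8 weeks of age that takes out most of the liver mass and sets off regrowth of the rest. The labels name no transgene or deletion and give neither the number nor the sex of the animals. A treatment note counts the adult control among the operated mice, but its title and source name call it a control, and it was used as one. It is also the only library with the code L002 in its description, so being the control cannot be told apart from whatever batch the code stands for, and all comparisons with it share its cells. Hepatocytes were barcodes with at least 5000 UMIs, 10% to 30% mitochondrial UMIs and at least 1% of UMIs from Alb, Apoa1 and Ttr. There were 2106 at P14, 925 in the control, and 1170, 719 and 771 at 24, 48 and 96 h, or 5691 in all.

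With 1 library per group there are no replicates and no test between groups. Intervals are 95% intervals of the count (exact Poisson for levels, exact conditional binomial for ratios, Clopper-Pearson for shares of cells) and cover counting error only. Median depth ran from 18527 to 38922.5 UMIs per hepatocyte, and all 8 further hepatocyte genes checked were above 100 CPM in each library. UMIs of 3 or more markers of another cell class were present in 43.1% of hepatocytes at 48 h, against 2.33% to 8.38% in the other libraries, and the summed neutrophil marker level was 196 CPM at 48 h against 11.5 to 105 elsewhere. Over the 10 pairs of libraries, 3 hepatocyte barcodes were shared. Free RNA, read from barcodes far below the hepatocytes in UMIs, held histone UMIs at 508 to 851 CPM. Those barcodes had a mean of 1328 UMIs in the control, against 290 to 795 in the other libraries. The control mean is above the lowest UMI count allowed for cells of other classes. Free RNA of the control may therefore include RNA of such cells.

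A nucleosome winds DNA around a core of H2A, H2B, H3 and H4, and the linker histone H1 binds where the DNA enters and leaves it. Most cluster genes are expressed while DNA is copied, have no introns, and make an mRNA that ends just past a short stem-loop without a poly(A) tail. The stem-loop is bound by the protein coded by Slbp, which the cell needs to cut, use and degrade these messages. Some cluster genes can also make a longer, polyadenylated mRNA, a form reported in differentiated cells. The 10x kit primes on poly(A), so a UMI here stands for a message captured through an A-rich stretch, and these levels do not measure the tail-less pool.

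The stem-loop is shown first because it divides the members. A 16-base stem-loop, with 6 paired bases on each side of a 4-base loop, lay after the stop codon in the longest coding transcript of 45 of the 67 members. In any transcript it was present in 46 members, out of 55 genes among the 21901 protein-coding genes searched, and in 0.111% of the 58797 coding transcripts. In the DNA-sense sequences below (GENCODE M21, read in the direction of the gene) the stem-loop is in capitals.
Hist1h2ap, chr13:21833029-21833044, minus strand: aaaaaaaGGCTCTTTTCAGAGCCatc
Hist1h1c, chr13:23739512-23739527, plus strand: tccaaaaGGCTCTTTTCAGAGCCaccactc
Hist1h1e, chr13:23621782-23621797, minus strand: acccaaaGGCTCTTTTCAGAGCCacccaca
Hist2h3c1, chr3:96247327-96247342, plus strand: ccacaaaGGCTCTTTTCAGAGCCaccacag
Hist1h4h, chr13:23531458-23531473, plus strand: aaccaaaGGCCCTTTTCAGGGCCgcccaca
Hist1h4i, chr13:22040966-22040981, minus strand: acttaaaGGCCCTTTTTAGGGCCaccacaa
The core of Hist1h2ap, Hist1h1c, Hist1h1e and Hist2h3c1 was the same, and 25 of the 45 members had it. The members differed instead in how much transcript the annotation placed behind the loop. Hist1h2ap ended 3 bases after it, Hist1h1c 840 bases after it and Hist2h3c1 1167 bases after it. A threshold of 100 bases, chosen after the values were seen, parted 22 members with a short end from 23 with a long end; Hist1h3c with 74 bases and Hist1h4a with 108 lay on either side of it. A further 9 members had a 3′ untranslated region without the stem-loop, among them Hist1h2bc and Hist2h2be, and 13 had none annotated. In Hist1h2af and Hist1h2ah that region had only 1 and 2 bases, too short to hold the loop. The division rests on the annotation used. Of 21 long-end members with an end in RefSeq, 19 stopped 4 to 8 bases after the stem-loop there, Hist1h1c among them, and only Hist1h2be and Hist1h3e went past 100 bases, so that RefSeq models would put nearly all of them with the short ends.

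Counts of several members are uncertain. In 32 of the 67, over 50% of the 50-base stretches in the last 400 bases of the transcript were shared with another member, and 23 shared none. For Hist1h2ap that share was 100%, with Hist1h2ao as the closest copy, so a Hist1h2ap value may hold or lack reads of such copies. Another gene overlapped 7 members on the same strand and 21 on the other strand, where Gm44466 faced Hist1h2ap. Same-strand overlaps included Hist2h3c1 and Hist2h2aa1 with Gm20634, Hist3h2a with Trim17, and Hist1h1e with Gm11398 and Hist1h2be. How reads that match several genes were counted, and with which strand rule, is not given in the sources used here.

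Members were detected unevenly. At least 1 UMI was found for 63 of the 67 members at P14 and 33 in the control, and for 58, 60 and 51 in the operated livers in order of time. The summed hepatocytes differed in depth, from 13316829 UMIs in the control to 64576753 at P14. With every library thinned to the control's total, 58 members were detected at P14, 33 in the control, and 55, 59 and 51 in the operated livers. Of all member UMIs over the 5 libraries, 54.2% came from Hist1h2bc, 21.2% from Hist1h1c and 6.02% from Hist1h2ap. Hist1h2ba, Hist1h2bq and Hist1h2aa had no UMI in any library. The summed level of the 67 was 502 CPM in the control, 373, 573 and 452 CPM at 24, 48 and 96 h and 336 CPM at P14, so that 48 h was above the control and the other libraries below it. With at least 5% of UMIs from Alb, Apoa1 and Ttr, which left 47 control cells, the log2 ratio to the control turned from -0.58 to 0.051 at P14 and from -0.15 to 0.24 at 96 h. The median of all features rose as well, from -0.24 to 0.055 at P14 and from 0.051 to 0.29 at 96 h. Without Hist1h2bc and Hist1h1c, a split made after the values were seen, the order changed. The other 65 members summed to 57.0 CPM in the control, 81.5 CPM at 24 h, 142 CPM at 48 h, 79.2 CPM at 96 h and 106 CPM at P14, lowest in the control and highest at 48 h, where the log2 ratio was 1.32 (1.205 to 1.44).

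The linker histone genes went in different directions. Hist1h1c (H1.2; ENSMUSG00000036181, chr13:23738808-23740367) stood at 87.9 CPM in the control, 91.0, 168 and 102 CPM at 24, 48 and 96 h and 54.9 CPM at P14. Its ratio to the control was 1.91 at 48 h (1.79 to 2.05) and 0.625 at P14 (0.585 to 0.668), with the 24 h value not apart from the control beyond counting error (1.03, 0.960 to 1.11). Hist1h1b (H1.5; ENSMUSG00000058773, chr13:21779883-21780625), an H1 gene known for expression in dividing cells, had 1 UMI in 925 control hepatocytes. Its levels of 5.48 CPM at 24 h, 5.42 at 48 h and 5.53 at P14 had overlapping intervals, and 1.49 CPM was left at 96 h. The ratio to that single UMI was 73.0 at 24 h with an interval from 12.8 to 2911. Hist1h1e (H1.4) had 3.68 CPM in the control, 6.92, 10.4 and 7.07 CPM at 24, 48 and 96 h and 12.02 CPM at P14. Hist1h1d (H1.3) had 1.73 CPM in the control, 2.92, 6.58 and 4.17 CPM along the time course and 5.39 CPM at P14. All 3 of these low H1 genes were above the control in each of the other libraries, by counting intervals that did not reach 1, whereas Hist1h1c was below it at P14. That direction turned, from -0.68 to 0.30 on the log2 scale, with at least 5% of UMIs from Alb, Apoa1 and Ttr. At that setting the median of all features at P14 rose as well.

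Both Hist1h1c and Hist1h1b are H1 genes, so the 250 bases before their RefSeq starts are printed beside those of the H2A gene Hist1h2ap to show which known histone promoter elements they hold. The letters searched on both strands were AAACACA (the H1 box), CCAAT and TATAAA; they do not overlap each other here, and matches are in capitals, with ATTGG where CCAAT is on the other strand. Windows come from RefSeq on GRCm38.p6, where 62 of the 67 members matched an entry.
Hist1h1c, chr13:23738557-23738806, plus strand: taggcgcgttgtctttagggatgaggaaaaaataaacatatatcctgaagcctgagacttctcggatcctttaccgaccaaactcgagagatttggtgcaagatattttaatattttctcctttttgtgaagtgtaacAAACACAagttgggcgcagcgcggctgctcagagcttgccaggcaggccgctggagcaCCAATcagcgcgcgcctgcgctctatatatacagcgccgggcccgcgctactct
Hist1h1b, chr13:21780626-21780875, minus strand: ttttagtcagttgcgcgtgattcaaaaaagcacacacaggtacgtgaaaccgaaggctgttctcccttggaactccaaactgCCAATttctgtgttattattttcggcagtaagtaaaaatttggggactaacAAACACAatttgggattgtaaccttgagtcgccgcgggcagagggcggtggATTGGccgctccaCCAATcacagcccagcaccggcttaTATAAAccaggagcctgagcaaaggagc
Hist1h2ap, chr13:21833476-21833725, minus strand: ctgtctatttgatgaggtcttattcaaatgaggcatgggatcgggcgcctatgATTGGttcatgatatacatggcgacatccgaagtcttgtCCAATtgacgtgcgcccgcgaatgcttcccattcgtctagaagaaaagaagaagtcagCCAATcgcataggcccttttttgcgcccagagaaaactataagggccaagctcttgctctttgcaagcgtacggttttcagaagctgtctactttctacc
Hist1h1c and Hist1h1b each held 1 AAACACA, with 1 CCAAT in the first and 3 in the second. The exact letters TATAAA were in the Hist1h1b window and not in that of Hist1h1c. Similar stretches, such as tatatata in the Hist1h1c window and ctataag in that of Hist1h2ap, were not searched. Hist1h2ap held 3 CCAAT and neither of the other motifs. AAACACA was found in 5 of 6 H1 windows and in 6.246% of all 32851 RefSeq windows. CCAAT was found in 51 of 62 member windows, in all 6 H1, 18 H2A and 16 H2B windows but 3 of 12 H4 windows, against 33.85% of all windows. TATAAA was found in 29 of 62 member windows against 12.368%.

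Among the core histones, Hist1h2ap (H2A; ENSMUSG00000094777, chr13:21833026-21833507) had the largest ratio between its highest and lowest library of the 12 leading members after Hist1h1b, whose ratio rests on 1 control UMI. It stood at 0.83 CPM in the control (11 UMIs), 25.2, 54.3 and 14.2 CPM at 24, 48 and 96 h and 21.8 CPM at P14. The control lay below each of the other libraries, with ratios of 30.5 at 24 h (16.9 to 61.5), 65.8 at 48 h (36.6 to 132), 17.2 at 96 h (9.40 to 35.0) and 26.3 at P14 (14.7 to 52.9). Free RNA moved with it, at 0.72 CPM in the control, 17.4, 21.3 and 8.40 CPM at 24, 48 and 96 h and 18.4 CPM at P14. Per barcode, however, the free RNA held 7.99% of the mean Hist1h2ap count of a hepatocyte in the control, 2.75%, 0.383% and 2.62% along the time course and 1.25% at P14. The control percentage may include RNA of other cells. Within a library, the levels in cycling and non-cycling cells given further on share this background. The percentages are over all hepatocytes. Non-cycling cells held few Hist1h2ap UMIs, with 24 in 1344 cells at P14 and 8 in 397 at 24 h. Free RNA would be a larger percentage of their count, which was not computed. Hist3h2a, an H2A gene with a long end, was highest in the control, with 6.16 CPM in the control, 1.74, 3.89 and 4.09 CPM at 24, 48 and 96 h and 2.28 CPM at P14. Hist1h2ae (H2A) was at 0.30 CPM in the control against 2.73 CPM at P14, 4.00 at 24 h and 4.22 at 48 h, and Hist2h2aa1 (H2A) at 1.05 CPM against 3.74 at 48 h.

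Hist1h2bc (H2B; ENSMUSG00000018102, chr13:23684199-23692908) has 2 annotated exons and no stem-loop in its longest coding transcript, and was the leading member in every library. It stood at 358 CPM in the control, 200, 263 and 271 CPM at 24, 48 and 96 h and 175 CPM at P14. The control was the highest and P14 the lowest, at 0.489 times the control (0.473 to 0.506). Its level in free RNA was higher than in hepatocytes in every library, at 618 CPM in the control, 564, 558 and 593 CPM along the time course and 310 CPM at P14. Per barcode the free RNA held 15.9% of the mean Hist1h2bc count of a hepatocyte in the control, 11.2%, 2.08% and 9.74% along the time course and 2.62% at P14. Both control values, the level and the percentage, may include RNA of other cells. Hist2h2be, an H2B gene with no stem-loop found in its longest coding transcript, had 2.10 CPM in the control, 2.15, 5.09 and 4.61 CPM at 24, 48 and 96 h and 5.51 CPM at P14.

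Both H3 genes among the 12 were highest in the control. Hist2h3c1 had 15.2 CPM there, 2.15, 4.13 and 6.03 CPM at 24, 48 and 96 h and 2.40 CPM at P14. Its ratio to the control was 0.141 at 24 h (0.099 to 0.198) and 0.395 at 96 h (0.302 to 0.514), so the 96 h library lay nearer to the control than the 24 h library. Hist2h3c2, its neighbour in the Hist2 cluster, had 6.46 CPM in the control, 1.59, 2.74 and 2.83 CPM at 24, 48 and 96 h and 1.47 CPM at P14. Among the H4 genes, Hist1h4i had 4.58 CPM in the control, 4.51, 7.06 and 9.23 CPM at 24, 48 and 96 h and 6.16 CPM at P14, and Hist1h4h had 5.78 CPM in the control, 4.25, 5.14 and 6.70 CPM and 7.77 CPM at P14.

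**Figure D1:**
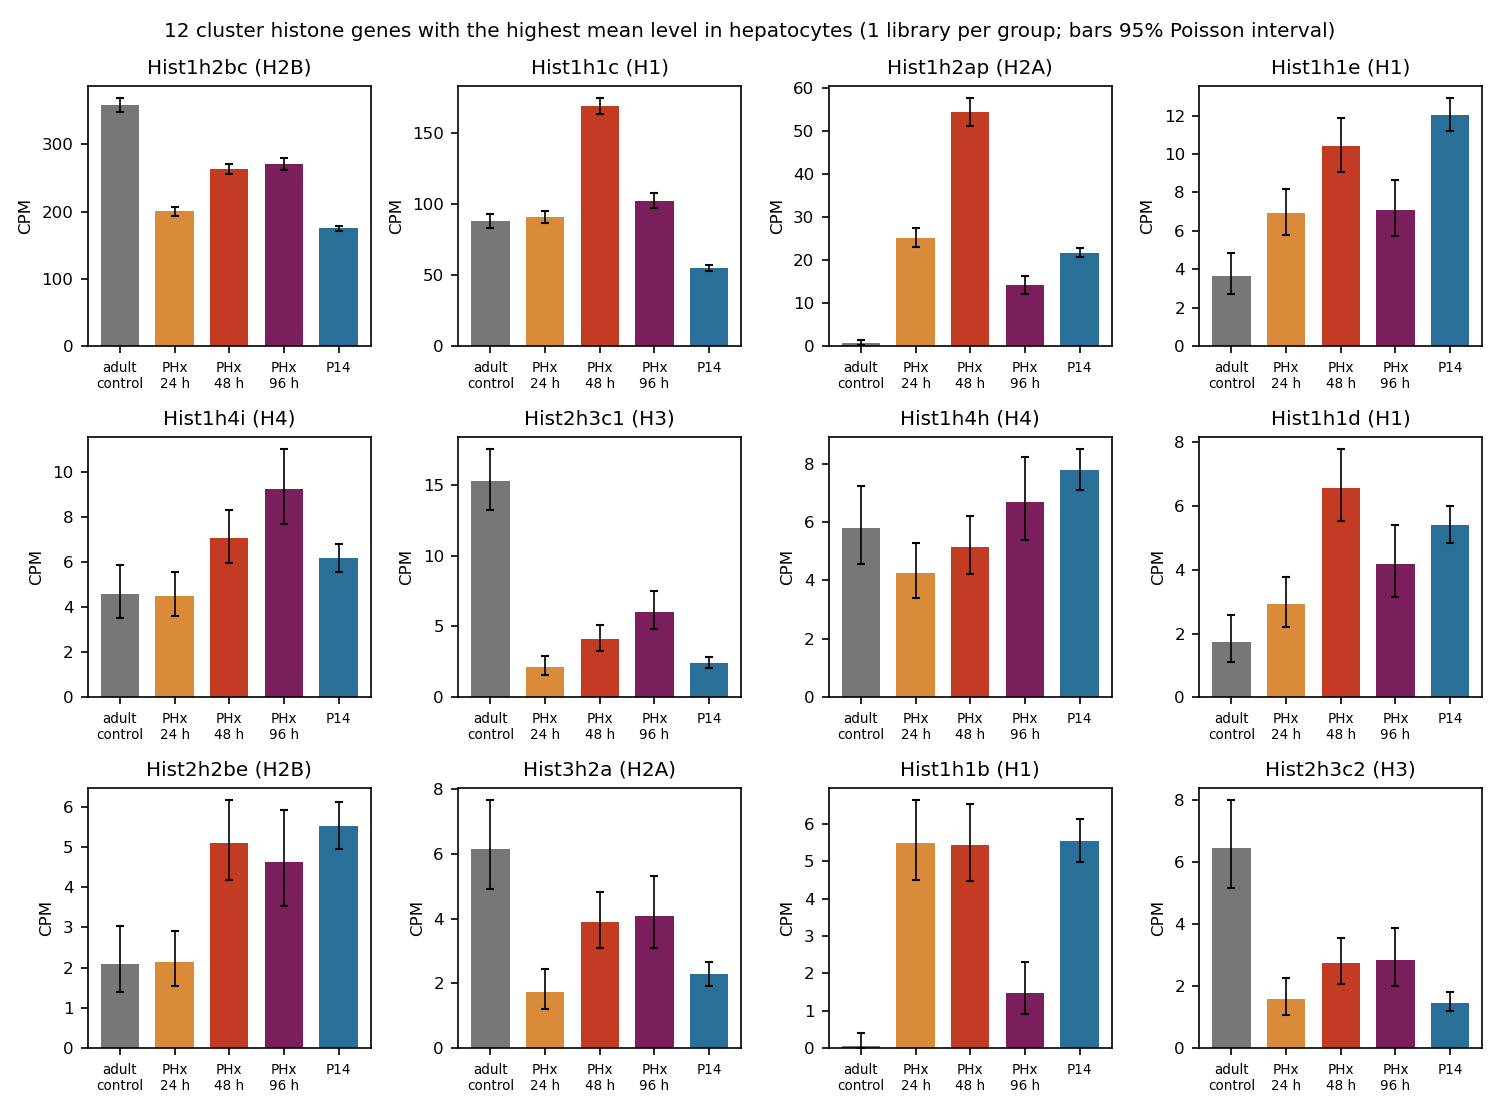
Level (CPM, linear axis from 0) of the 12 members with the highest mean in hepatocytes of each library; bars are 1 library each and error bars the 95% Poisson interval of the count. Hist1h2ap runs from 0.83 CPM in the control to 54.3 CPM at 48 h, while Hist1h2bc, Hist2h3c1, Hist3h2a and Hist2h3c2 are highest in the control.

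A feature was compared between libraries when its mean over the 5 libraries was at least 2 CPM, and a difference was called at 2-fold on log2(CPM + 1), a scale that understates changes of low genes. Only 15 of the 67 members reached that mean, and those that did so through 1 high group had to differ, so the counts below describe them and nothing more. At P14, 6 of the 15 were higher than the control, where 7.79% of all 10181 features were, and 4 were lower, where 13.1% were. At 24 h, 3 were higher (8.41% of all features) and 3 lower (6.75%). At 48 h, 6 were higher (8.18%) and 1 lower (6.97%), and at 96 h 2 were higher (4.83%) and 1 lower (1.76%). Hist1h1b and Hist1h2ap were higher in all 4 libraries, and Hist2h3c1 was lower in all 4. Hist1h2ae was higher at P14, 24 h and 48 h, Hist1h1d and Hist1h1e at P14 and 48 h, Hist2h2be at P14 and Hist2h2aa1 at 48 h. Hist3h2a and Hist2h3c2 were lower at P14 and 24 h, and Hist1h2bc at P14. From 24 h to 48 h Hist1h2ap alone was called, higher by 2.16 times (1.94 to 2.40), where 1.66% of all features were higher and 1.63% lower. From 48 h to 96 h Hist1h1b, Hist1h2ap and Hist1h2ae were lower (4.04% of all features) and none was higher (4.31%). The counts rested on the processing. The share of all features was not computed at the settings that follow, so these counts have no background beside them. With a pseudocount of 5 CPM, 2 members were higher and 2 lower at P14, 2 higher and 1 lower at 24 h, 2 higher and 1 lower at 48 h, and 1 higher and 0 lower at 96 h. Without the filter on the mean, 10 of all 67 members were higher at 48 h. With TMM factors, which moved the median of all features at P14 from -0.24 to 0.08 on the log2 scale, the Hist1h2bc ratio at P14 shrank from -1.03 to -0.69 and was no longer called. Where Alb, Apoa1 and Ttr had to reach 5% of UMIs, which left 47 control hepatocytes, Hist3h2a at P14 turned from -1.44 to 0.46.

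The other 52 members were all below 2 CPM on average. Among the 67, low members included, the counting interval of the ratio to the control lay above 1 for 29 at P14, where it did for 11.1% of all 31053 features, 13 at 24 h (12.9%), 25 at 48 h (11.9%) and 11 at 96 h (11.8%). It lay below 1 for 5 at P14 (19.5%), 5 at 24 h (13%), 4 at 48 h (14%) and 4 at 96 h (8.74%), and Hist1h2bc, Hist2h3c1, Hist2h3c2 and Hist3h2a were among these each time. The 55 members outside the leading 12 summed to 10.4 CPM in the control, 24.5, 37.5 and 18.8 CPM at 24, 48 and 96 h and 35.4 CPM at P14.

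The order of the libraries by histone type turned on 1 or 2 genes in most types. The 18 H2A genes summed to 9.24 CPM in the control, 36.3, 73.0 and 24.2 CPM at 24, 48 and 96 h and 36.3 CPM at P14, or 7.90 times the control at 48 h. Without Hist1h2ap that ratio was 2.22. The 12 H3 genes summed to 23.4 CPM in the control, 8.66, 15.3 and 12.2 CPM at 24, 48 and 96 h and 10.98 CPM at P14, below the control in each library. That order rests on Hist2h3c1 and Hist2h3c2, left out after the values were seen: the other 10 H3 genes were lowest in the control, at 1.73 CPM (23 UMIs) against 4.92, 8.40 and 3.35 CPM along the time course and 7.11 CPM at P14. H2B summed to 362 CPM in the control, 206, 274 and 279 CPM along the time course and 187 CPM at P14, but its members other than Hist1h2bc were lowest in the control, at 4.21 CPM against 5.79, 11.4 and 8.93 CPM and 12.2 CPM at P14. H1 summed to 93.6 CPM in the control, 107, 193 and 116 CPM and 79.2 CPM at P14, and without Hist1h1c to 5.63 CPM in the control against 16.4, 24.2 and 13.5 CPM and 24.2 CPM at P14. H4 had the narrowest range, from 14.3 CPM at 24 h and 14.5 CPM in the control through 18.4 at 48 h and 20.5 at 96 h to 21.9 CPM at P14. The 4 core types are used in equal number in a nucleosome, and their captured UMIs were not equal in any library.

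**Figure D2:**
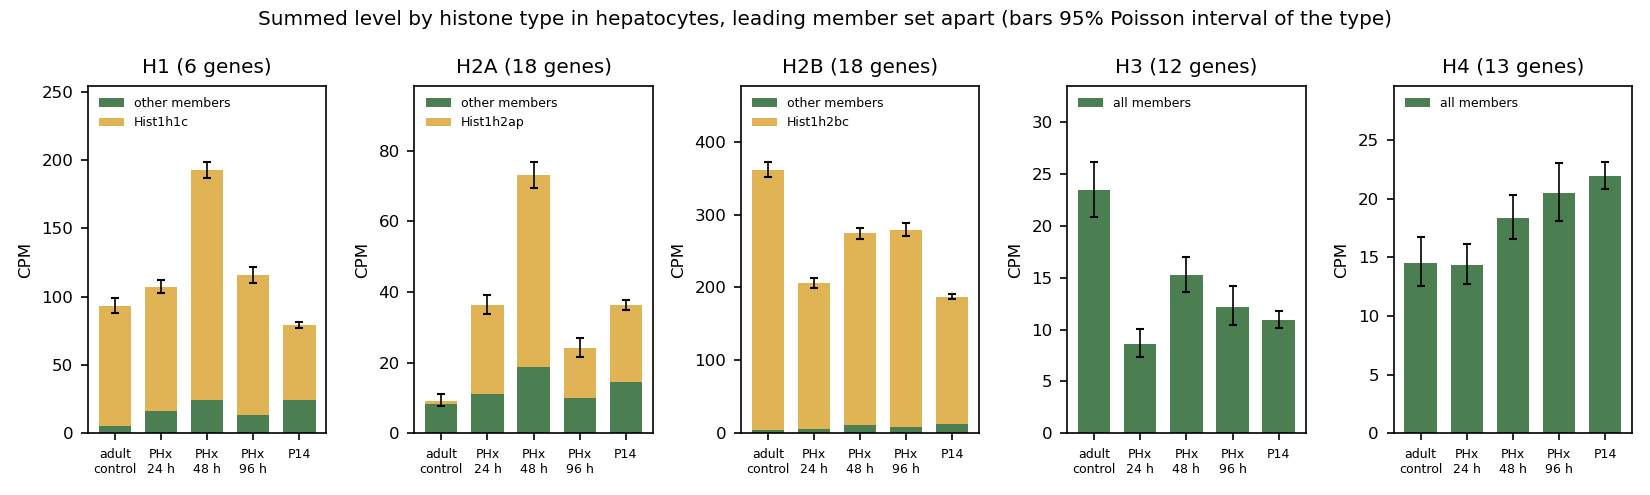
Summed CPM of each histone type by library (linear axes from 0, scaled separately), with the leading member of H1, H2A and H2B in yellow and the other members in green; error bars are the 95% Poisson interval of the whole type. H2A reaches 73.0 CPM at 48 h against 9.24 CPM in the control, and H3 is highest in the control at 23.4 CPM, where H3 genes other than Hist2h3c1 and Hist2h3c2 make up 1.73 CPM.

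Members were also summed by their GENCODE end. Short-end members together stood at 8.64 CPM in the control, 38.4, 73.7 and 26.0 CPM at 24, 48 and 96 h and 40.7 CPM at P14, of which Hist1h2ap was the larger portion outside the control. Without Hist1h2ap the short-end members had 7.81 CPM in the control, 13.2, 19.4 and 11.8 CPM and 19.0 CPM at P14, so the control remained the lowest. Long-end members without Hist1h1c stayed between 32.4 CPM at 24 h and 52.7 CPM at 48 h, with the control at 46.0 CPM, 96 h at 44.9 CPM and P14 at 49.4 CPM. Without Hist2h3c1, Hist2h3c2 and Hist3h2a as well, the other 19 long-end members were lowest in the control too, at 18.1 CPM against 26.95, 41.9 and 31.9 CPM along the time course and 43.3 CPM at P14. The 13 members without an annotated 3′ untranslated region, Hist1h1b included, had 0.15 CPM in the control (2 UMIs), 6.76, 7.58 and 2.53 CPM along the time course and 7.71 CPM at P14. The 8 members without an annotated stem-loop other than Hist1h2bc had 2.25 CPM in the control, 3.89, 8.35 and 5.80 CPM and 7.87 CPM at P14. They include Hist1h2af and Hist1h2ah, whose annotated region is too short to hold the loop. The classes differ from those RefSeq models would give, and were drawn after the values were seen, and the difference between them was not tested.

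Shares of positive cells were taken after thinning each hepatocyte to 5000 UMIs. A UMI of any member was then present in 83.2% of control hepatocytes (80.7% to 85.6%), 73.2%, 77.6% and 72.5% at 24, 48 and 96 h, and 61.0% at P14, the lowest. Without thinning the shares were 98.2% in the control, 96.2%, 99.3% and 98.3% along the time course and 97.3% at P14. Hist1h2bc was found in 74.3% of control cells, 52.4%, 56.9% and 56.2% at 24, 48 and 96 h and 42.7% at P14, and Hist1h1c in 25.8%, 31.4%, 39.5%, 29.2% and 18.8% in the same order. Hist1h2ap was found in 0.22% of control hepatocytes, 4.44% at 24 h (3.34% to 5.79%), 10.8% at 48 h (8.67% to 13.4%), 2.20% at 96 h (1.29% to 3.51%) and 4.32% at P14 (3.49% to 5.28%). Its unthinned shares were 0.97% in the control, 10.9%, 25.3% and 7.13% along the time course and 8.31% at P14. In any library, most hepatocytes held no Hist1h2ap UMI.

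To see which hepatocytes held these messages, cells were classed at 5000 UMIs from 26 replication genes (such as Mcm5, Rrm2 and Tyms) and 22 mitosis genes (such as Top2a, Cdk1 and Ccnb1), none of them a histone. The mitosis class had at least 3 mitosis genes, the replication class at least 3 replication genes and fewer than 3 mitosis genes, and the non-cycling class no mitosis gene and at most 1 replication gene. Several genes of the mitosis list are known to come on before mitosis, so the class names stand for the lists and not for a stage. The non-cycling class held 775 hepatocytes in the control, 397, 208 and 508 at 24, 48 and 96 h and 1344 at P14. The replication class held 404, 115 and 25 along the time course and 110 at P14, and the mitosis class 159, 277 and 62 and 244 at P14. The control had 15 and 4 cells in these classes, too few for a level. At 48 h the share of cells with markers of another class was 41.3%, 41.7% and 44.8% in the non-cycling, replication and mitosis classes.

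The mitosis class held most of Hist1h2ap. Its level in non-cycling cells was 0.57 CPM at P14 and 1.23, 1.87 and 2.66 CPM at 24, 48 and 96 h. In the replication class it was 6.19 CPM at 24 h, 40.3 at 48 h, 34.2 at 96 h and 45.1 at P14. In the mitosis class it was 136 CPM at 24 h, 110 at 48 h, 109 at 96 h and 167 at P14. The ratio of mitosis class to non-cycling class was 110 at 24 h (55.5 to 257), 58.9 at 48 h (31.9 to 123), 41.1 at 96 h (26.3 to 66.8) and 294 at P14 (196 to 460), from cells that share 1 library and its free RNA. That free RNA would be a larger part of the non-cycling level than of the mitosis-class level. At 5000 UMIs per cell, Hist1h2ap was present in 31.1% of mitosis-class cells at P14 and in 27.7%, 23.8% and 12.9% of them after the operation, in order of time. At the same depth it was present in 0 of 397 non-cycling cells at 24 h and 0 of 208 at 48 h, which by the limit of 3 counts (not Clopper-Pearson) allows up to 0.76% and 1.44% of cells with a UMI at that depth and does not limit cells expressing the gene, and in 1.18% at 96 h and 0.37% at P14. With all UMIs, the non-cycling cells at 24 h and 48 h held 8 and 10 Hist1h2ap UMIs. Hist1h1b was higher in the mitosis class as well, at 40.4 CPM against 1.00 at P14, and in the operated livers at 25.001 against 1.39, 10.7 against 1.12 and 8.28 against 0.69 CPM in order of time.

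H2A, H3 and H4, and H1 without Hist1h1c, had a higher sum in the mitosis class in all 4 libraries. The H2A ratio to the non-cycling class was 29.7 at 24 h (21.5 to 42.2), 15.97 at 48 h (11.97 to 21.8), 13.2 at 96 h (10.2 to 17.2) and 24.3 at P14 (21.7 to 27.3). For H3 the ratio was 3.24, 1.86 and 1.90 at 24, 48 and 96 h and 4.18 at P14, and for H4 3.91, 2.23 and 2.98 and 3.74. For H1 without Hist1h1c it was 6.23, 3.36 and 3.33 and 6.73. All H1 genes together stood at 124 CPM in the mitosis class against 128 CPM in non-cycling cells at 24 h. They stood at 269 against 128 CPM at 48 h, 294 against 85.6 CPM at 96 h and 213 against 59.5 CPM at P14. The H2B ratio was 0.846 (0.769 to 0.929), 1.13 and 1.49 at 24, 48 and 96 h and 1.88 at P14, and without Hist1h2bc 6.83, 4.29 and 4.99 and 8.26. Most H2B UMIs are from Hist1h2bc, whose log2 ratio at 48 h turned from 0.10 to -0.027 without mixed droplets and to -0.18 with 10% to 20% mitochondrial UMIs. Of the 15 compared members, 9 were called higher in the mitosis class at 24 h (8.06% of all features), 9 at 48 h (7.09%), 10 at 96 h (8.81%) and 10 at P14 (7.52%), and none was called lower, where 0.737%, 0.678%, 3.12% and 0.138% of all features were. The classes come from genes other than histones, but a member's mean over libraries decided whether it was compared.

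For all 67 members together the replication class was at or below the non-cycling class except at P14. Summed over the 67, its ratio to non-cycling cells was 1.08 at P14 (1.01 to 1.16), and after the operation 0.808 at 24 h (0.762 to 0.858), 0.810 at 48 h (0.750 to 0.873) and 0.979 at 96 h (0.830 to 1.15). Without Hist1h2bc and Hist1h1c the ratio was 1.36 at 24 h (1.136 to 1.63), 2.12 at 48 h (1.78 to 2.52), 1.82 at 96 h (1.30 to 2.496) and 2.40 at P14 (2.16 to 2.67), so leaving out 2 genes turned the direction at 24 h and 48 h. With cells from 2000 UMIs, thinned to that depth, the log2 ratio of all 67 went from 0.11 to 1.05 at P14, from -0.31 to -0.069 at 24 h and from -0.30 to 0.014 at 48 h. For those 65 members the mitosis class was 6.91 times the replication class at 24 h (6.06 to 7.90), 2.51 times at 48 h (2.22 to 2.85), 2.75 times at 96 h (2.00 to 3.87) and 3.64 times at P14 (3.28 to 4.04). Called higher in the replication than in the non-cycling class were 1 member at 24 h (3.24% of all features), 3 at 48 h (3.65%), 3 at 96 h (6.28%) and 3 at P14 (3.26%), with Hist1h2ap among them each time. Called lower were 3 at 96 h (7.36%), where the class held 25 cells, 1 at P14 (0.216%), and none at 24 h (0.0786%) or 48 h (0.462%). Called higher in the mitosis than in the replication class were 10 members at 24 h (3.16% of all features), 7 at 48 h (4.1%), 9 at 96 h (13%) and 10 at P14 (4.3%). None was lower, where 0.422%, 0.648%, 4.4% and 0.658% of all features were. Hist1h2ap in the replication class was 6.19 CPM at 24 h, the lowest of the 4 libraries by intervals that do not overlap.

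The mitosis class was then divided by its replication genes, a step added after the values were seen. Cells that had 3 or more replication genes beside their mitosis genes numbered 135, 131 and 27 at 24, 48 and 96 h and 124 at P14, and those with 0 or 1 numbered 10, 93 and 22 and 68. The cells with exactly 2, numbering 14, 53 and 13 and 52, did not always lie between: their Hist1h2ap was 177 CPM at 24 h, 58.8 at 48 h, 0 at 96 h and 34.3 at P14, and their Hist1h2bc at 48 h was 334 CPM. Hist1h2ap was at 177 CPM in the former and 36.6 CPM in the latter at 48 h, a ratio of 4.84 (2.27 on the log2 scale, 1.98 to 2.58). At 96 h it was at 268 CPM against 6.25 CPM (3 UMIs), and at P14 at 300.3 CPM against 13.1 CPM, a ratio of 22.9. At 24 h it was at 137 CPM against 64.2 CPM in 10 cells. At P14, 6.45% of cells with 3 or more replication genes and 1.47% of those with 0 or 1 had markers of another class. At 24 h these shares were 10.4% and 0%. Without mixed droplets the Hist1h2ap ratio was 10.8 at 48 h and 16.2 at P14. Hist1h1b had 17.5 CPM against 2.07 at 48 h and 69.5 against 3.68 at P14, in the same order as Hist1h2ap.

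Hist1h2bc and Hist1h1c had the other order within the mitosis class. Hist1h2bc was at 210 CPM in cells with both gene sets and 312 CPM in those with mitosis genes and few replication genes at 48 h, 234 against 448 CPM at 96 h and 191 against 325 CPM at P14. Hist1h1c was at 177 against 283 CPM at 48 h and 151 against 333 CPM at 96 h, and at 118 against 128 CPM at P14, where the intervals overlap. Against non-cycling cells, the whole mitosis class had more Hist1h1c at 48 h (1.98 times, 1.81 to 2.16), 96 h (3.45 times, 3.02 to 3.94) and P14 (2.56 times, 2.36 to 2.78) but less at 24 h (0.589 times, 0.505 to 0.684). The median depth of the divided cells was 43326 and 38969 UMIs at 48 h and 37139.5 and 35211 at P14.

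**Figure D3:**
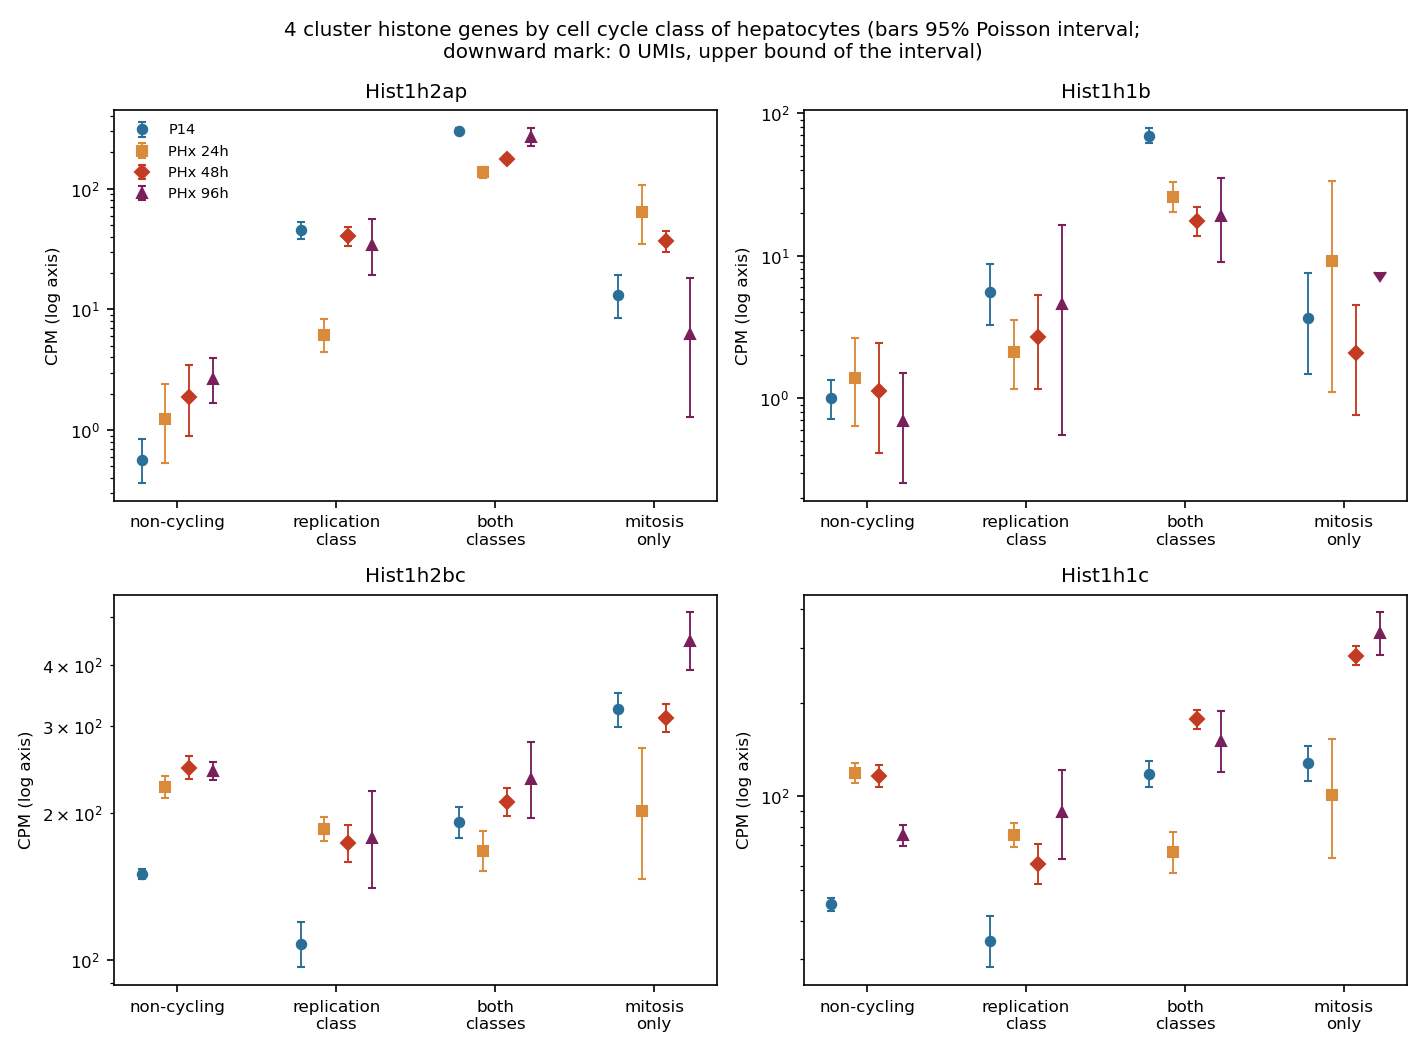
Level (CPM, log axis) of 4 members in 4 sets of hepatocytes per library, from non-cycling cells through the replication class to mitosis-class cells with 3 or more replication genes (both classes) and with 0 or 1 (mitosis only); bars are 95% Poisson intervals, and the adult control has too few cycling cells to be drawn. At 48 h Hist1h2ap goes from 1.87 to 40.3, 177 and 36.6 CPM along this order, while Hist1h2bc and Hist1h1c are highest in the last set, at 312 and 283 CPM.

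Non-cycling hepatocytes were also compared with those of the control, since the classes have different sizes in the libraries. The 65 members other than Hist1h2bc and Hist1h1c were not lowest in the control here, unlike over all hepatocytes. Their ratio to the control was 0.582 at 24 h (0.496 to 0.681) and 0.819 at 48 h (0.704 to 0.950). At 96 h (0.957) and P14 (0.928) the sum was not apart from the control beyond counting error. Hist2h3c1 was lower in non-cycling cells too. It was at 15.8 CPM in the control against 3.39, 5.23 and 5.31 CPM at 24, 48 and 96 h and 2.33 CPM at P14. Hist1h2bc was at 355 CPM in the control against 226, 247 and 243 CPM and 150 CPM at P14. The H2A sum was 8.57 CPM in the control, 6.01, 8.97 and 10.4 CPM along the time course and 9.14 CPM at P14, with all 4 ratios not apart from 1 beyond counting error. The H2B and H3 sums were below the control in all 4 libraries. H2B without Hist1h2bc was instead above it at P14 (1.41 times, 1.03 to 1.98). So was H3 without Hist2h3c1 and Hist2h3c2 (2.20 times, 1.36 to 3.75). At 24, 48 and 96 h neither was apart from the control beyond counting error. H1 without Hist1h1c was above the control in all 4 libraries. Its ratio was 1.64 at 24 h (1.12 to 2.40), 2.20 at 48 h (1.52 to 3.20), 1.97 at 96 h (1.41 to 2.79) and 2.74 at P14 (2.10 to 3.65). Short-end members were above the control at 96 h (1.52 times) and P14 (1.59 times). At 24 h and 48 h they were not apart from it beyond counting error. Long-end members without Hist1h1c were below the control at 24, 48 and 96 h (0.485, 0.697 and 0.800 times) and P14 (0.731 times). Without Hist2h3c1, Hist2h3c2 and Hist3h2a as well, long-end members were above it at 96 h (1.39 times) and P14 (1.60 times). At 24 h and 48 h that smaller sum was not apart from the control beyond counting error. Hist1h2ap in these cells was 0.45 CPM in the control (5 UMIs), with a ratio of 2.76 at 24 h (0.797 to 10.7), 4.19 at 48 h (1.30 to 15.6), 5.96 at 96 h (2.21 to 20.1) and 1.277 at P14 (0.478 to 4.29). Called members of the 15 were 4 lower and 1 higher at P14 (14.9% and 6.15% of all features), 3 and 1 at 24 h (7.53% and 4.94%), 2 and 0 at 48 h (8.87% and 4.28%) and 1 and 1 at 96 h (2.02% and 3.53%).

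A minority of the genes that make and handle histone messages and proteins were called against the control, more of them at 24 h than at the later times. Of 16 genes for transcription and 3′ end processing of histone mRNA, 15 were compared, and 5 were called higher at 24 h, 2 at 48 h, 0 at 96 h and 2 at P14, with none lower than the control. The shares of all features called higher, against which this and the next lists can be read, were 8.41%, 8.18%, 4.83% and 7.79% in that order, and 2 of 15 is near them. Slbp, the stem-loop binding protein, had 22.5 CPM in the control, 60.9, 34.9 and 25.2 CPM at 24, 48 and 96 h and 19.0 CPM at P14. Eri1, an exonuclease that acts on the stem-loop end, had 16.3 CPM in the control and 45.5, 30.4 and 17.7 CPM, and 11.3 CPM at P14. Cyclin E, which with Cdk2 drives entry into DNA synthesis and acts on the histone gene factor Npat, had 2.40 CPM in the control for Ccne1 against 23.3 CPM at 24 h and 9.41 CPM at 48 h, and 1.73 CPM for Ccne2 against 22.96 and 8.74 CPM. These genes are named because they were called at 24 h, so their order over time is a description. The other 10 compared genes of the list had log2 ratios to the control between -0.71 (Sympk) and 0.89 (Snrpd3) at 24 h.

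Of 17 histone chaperones, which hand histones to DNA, 6 were called higher at 24 h, 5 at 48 h, 1 at 96 h and 5 at P14. Chaf1a, the large subunit of the factor that loads H3 and H4 behind the fork, had 0.45 CPM in the control, 15.8, 11.95 and 2.16 CPM along the time course and 3.78 CPM at P14. Nasp, a carrier of H3 and H4, had 11.8 CPM in the control, 38.3, 24.3 and 14.9 CPM and 26.5 CPM at P14. Of the other chaperones called at 24 h, Asf1b, Chaf1b and Anp32b were also highest at 24 h. Hirip3 was highest at 48 h, with 7.53 CPM at 24 h and 8.26 CPM at 48 h. Of 11 replacement variants, which are coded outside the clusters, 10 were compared, and 3 were called higher at 24 h, 4 at 48 h, 3 at 96 h and 2 at P14. H2afz, the H2A.Z variant, had 179 CPM in the control, 487, 744 and 525 CPM at 24, 48 and 96 h and 345 CPM at P14. Cenpa, the centromeric H3, had 5.93 CPM in the control, 22.8, 77.3 and 28.7 CPM and 27.7 CPM at P14, so both variants were highest at 48 h. H3f3a, a replacement H3, had 286 CPM in the control and 319, 344 and 420 CPM, and 347 CPM at P14, and H3f3b, which codes for the same protein, had 306 CPM in the control, 611, 591 and 496 CPM and 377 CPM at P14. Neither was called in any library (H3f3b reached a log2 ratio of 0.99 at 24 h), and both were lowest in the control. The 22 mitosis genes were all called higher in each of the 4 libraries, and of the 26 replication genes 25 were higher at 24 h and 48 h, 13 at 96 h and 19 at P14. Mcm10 was called lower at 24 h, 48 h and P14, with 133 CPM in the control, 19.8, 24.0 and 95.8 CPM along the time course and 7.36 CPM at P14, although it is one of the genes that set the replication class. Because its level differs so much, the limits on replication genes may not be alike between libraries. Classes without Mcm10 were not computed.

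**Figure D4:**
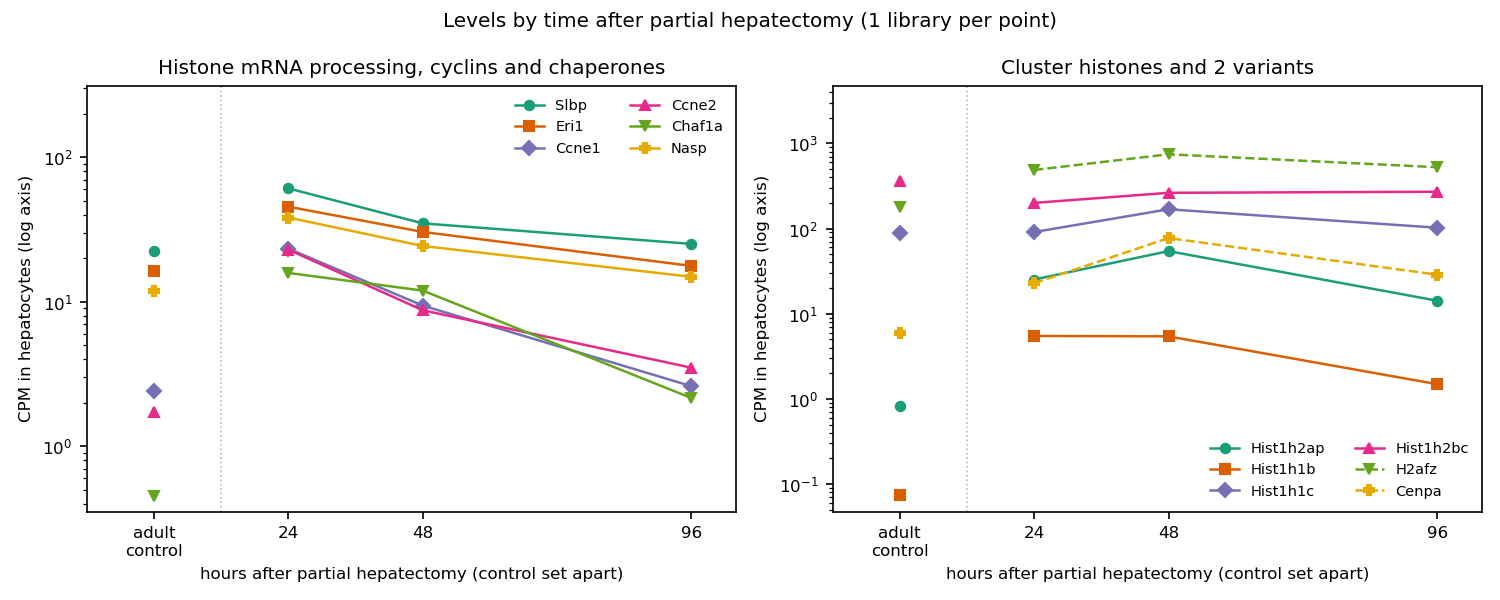
Hepatocyte level (CPM, log axis) against hours after partial hepatectomy, with the adult control set apart at the left and 1 library per point; lines join the operated libraries and dashed lines mark the replacement variants. Slbp (60.9 CPM), Eri1, Ccne1, Ccne2, Chaf1a and Nasp have their highest point at 24 h, and Hist1h2ap (54.3 CPM), Hist1h1c, H2afz and Cenpa at 48 h. The genes named for 24 h were all among those called higher at 24 h, so their order over time is a description. Of genes not drawn, the chaperone Hirip3 was highest at 48 h and the variant H3f3b at 24 h. Hist1h1b is about level at 24 h and 48 h, and Hist1h2bc is highest in the control and, among the operated libraries, at 96 h.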

How the data were processed

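The deposited matrices hold UMI counts per gene and barcode, made by the authors with Cell Ranger (software 3.0.2 per the file headers; build mm10 per the submitters' processing notes). No filter on barcodes had been applied to them. From these counts, hepatocyte barcodes were selected, cells thinned to 5000 UMIs for shares and classes (Python 3.11.15, numpy 2.4.6, scipy 1.17.1), and counts summed per library and gene. Library totals ran from 80927744 to 136110607 UMIs. TMM factors (edgeR 4.0.16 in R 4.3.3) were an alternative. No model was fitted, since each group is 1 library. The scripts were tested on simulated data. Members and gene lists were chosen with earlier results of these data known. The 12 members with the highest mean CPM are named with all values, further members where called, and list genes among the 3 highest or where called; naming other genes was decided after their values were seen. Doublets were not removed; mixed droplets were left out as an alternative. Other alternatives changed the UMI, mitochondrial and hepatocyte thresholds, the denominator, the pseudocount, the low filter and the class threshold. Thinning the summed hepatocytes to the smallest library was added after seeing the data. Stem-loops came from GENCODE M21 and promoter windows from RefSeq GRCm38.p6.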

Additional observations from a re-analysis of the deposited data

Results flagged for a closer look

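In 8 quantities, 2 libraries lay on opposite sides of no difference, each with a counting interval clear of it; the difference between the libraries was not tested, and values are log2 ratios. Summed over all members, the replication class was above non-cycling hepatocytes at P14 (0.113798) and below them at 24 h (-0.307115). Hist1h1c in the mitosis class was above non-cycling cells at 96 h (1.78731) and below at 24 h (-0.764592), and Hist1h2bc was above at P14 (0.703795) and below at 24 h (-0.380816). For Hist2h3c1 the same ratio was 0.987168 at 96 h and -0.980252 at 48 h, and for the H2B sum 0.907246 at P14 and -0.241942 at 24 h. Against the adult control, Hist1h1c stood at 0.937285 at 48 h and -0.678499 at P14. The H1 sum stood at 1.04175 and -0.241181, and the sum of all members at 0.190732 and -0.58196, in the same pair of libraries. With at least 5% hepatocyte transcripts the P14 values of Hist1h1c and of the sum of all members turned to 0.30 and 0.051. The median of all features at P14 rose as well, and that setting left too few cells at 48 h for a value.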

How the results depend on the processing

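No paired analysis was possible because each group is 1 library and its replicate number only names it; for the same reason no replicate could be left out. Ratios here are log2 values, in the order P14, 24 h, 48 h and 96 h unless said otherwise. The sum of all members over the adult control was -0.58, -0.43, 0.19 and -0.15, the replication class over non-cycling cells 0.11, -0.31, -0.30 and -0.03, and the mitosis class over non-cycling cells 1.72, 0.54, 0.85 and 1.23. The cause of each shift below was not tested. Without Hist1h2bc and Hist1h1c, chosen after seeing the data, these became 0.89, 0.52, 1.32 and 0.48 over the control, 1.27, 0.44, 1.08 and 0.87 for the replication class, and 3.13, 3.23, 2.41 and 2.33 for the mitosis class; shares of positive cells became 23.4% at P14, 16.8% in the control and 16.1%, 27.7% and 20.6% at 24, 48 and 96 h. A limit of 10% to 20% mitochondrial UMIs left 933 hepatocytes at P14, 87 in the control, and 181, 116 and 53 at 24, 48 and 96 h. With it the sum over the control was -0.38, -0.21, 0.36 and -0.37. Called lower members were 2 at P14, 0 at 48 h and 3 at 96 h, with 1 higher at 96 h. Hist2h2be, a gene of few UMIs, turned to -0.18 at 48 h and -2.22 at 96 h, and Hist1h1c to -0.39 at 96 h. Shares were then 63.8%, 88.5%, 78.5%, 83.6% and 77.4% (P14, control, 24, 48, 96 h), the replication class at 24 h -0.55, the mitosis class 0.81 at 24 h and 0.65 at 48 h, and Hist1h2bc in the mitosis class at 48 h turned to -0.18. From 2000 UMIs the shares were 34.7%, 54.7%, 43.3%, 52% and 43.9%, the replication class 1.05 at P14, -0.069 at 24 h and 0.014 at 48 h with Hist1h1c at 0.31 at P14, and the mitosis class 1.61 at P14, 0.79 at 24 h and 0.96 at 96 h. From 10000 UMIs, 2 members were lower at 48 h and the replication class at 96 h was -0.37. With 5% hepatocyte transcripts, which left 47 control cells and 6 and 2 at 24 and 48 h (no value given there), the sum over the control was 0.051 at P14 and 0.24 at 96 h, Hist1h1c 0.30 and Hist3h2a 0.46 at P14, Hist3h2a 1.08 and Hist1h2bc 0.00058 at 96 h, with 4 members higher and 2 lower at 96 h, a control share of 63.8% and a mitosis class at 1.01 at 96 h. Without mixed droplets, 2 members were lower at 48 h, the 48 h share was 80.7%, the replication class 0.30 at P14 and -0.13 at 48 h, the mitosis class at 48 h 0.66, and Hist1h2bc there turned to -0.027. TMM gave -0.24, -0.37 and 0.28 over the control at P14, 24 h and 48 h and 2 lower members at P14; mitochondrial UMIs in the denominator gave -0.49 and 2 lower at P14. A threshold of 5 replication genes gave 0.35 at P14 and -0.54 at 48 h for the replication class. Without the low filter 10 of all 67 members were higher at 48 h. Counts of called members in this section have no share of all features beside them. A pseudocount of 5 left 2 higher and 2 lower at P14, 1 lower at 24 h, 2 higher at 48 h, and 1 higher and 0 lower at 96 h. Without thinning, shares were 97.3%, 98.2%, 96.2%, 99.3% and 98.3%. For the other sums and shares the value stayed within its interval. Of 470 single-gene values under the alternatives, 378 stayed within their counting interval, 82 lay outside it and 10 were reversed. Hist1h2ap over the control stayed between 3.80 and 6.68 over the settings that gave a value.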

Other observations

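Cells of other classes in the same libraries, named from marker genes, also held Hist1h2ap. In B-like cells it stood at 2473 CPM at P14 (99 cells), 33.0 CPM in the control, and 200.01, 109.96 and 20.6 CPM in the operated livers in order of time. In monocyte and dendritic cell-like cells it stood at 1180 CPM at P14 (24 cells), 3.38 CPM in the control (2 UMIs), and 327, 107 and 489 CPM in the same order. Barcodes with hepatocyte transcripts and under 5% mitochondrial UMIs, which the hepatocyte rule leaves out, had all members at 1429 CPM in the control (132 barcodes), 544 CPM at P14, and 705, 999 and 843 CPM after the operation. The control was the highest there, with Hist1h2bc at 1211 CPM and no Hist1h2ap UMI.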
